A study of Elaeis guineensis with 2 samples.

Results

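Of the 7919 peaks called for the transcription factor EgAGL9 in fruit of the oil palm, 1318 stood alone on an assembled chromosome. A site was taken as isolated when it lay on 1 of the 16 chromosome sequences (names starting with NC_) and the nearest other summit on that sequence was 10000 bp or more away. The summit is the base of highest enrichment within a peak. The isolated peaks made up 1318 of the 1711 chromosome peaks. The other 393 chromosome peaks had a summit within 10000 bp, and the remaining 6208 peaks lay on unplaced scaffolds. The same rule gave 804 when applied to the 996 chromosome peaks whose −log10 q (the corrected p-value) was 5 or more. Among the called peaks, position alone decided membership. Which peaks and neighbours were called depended on enrichment, so the member set is not independent of the values below. The spacing of the members and their share of each chromosome's peaks follow from the rule and are given as description.

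The study compared 1 library immunoprecipitated with an antibody to EgAGL9 with 1 input library made with no antibody. Both came from Elaeis guineensis fruit, the African oil palm (cultivar given as Jacq), with EgAGL9 overexpressed and no other treatment. Neither the promoter behind the overexpression nor the number of palms or fruits per library is given in the sources used here. Because the input carries the overexpression too, the comparison is between precipitated and total chromatin of the same genotype. With 1 library in each group and no control immunoprecipitate, no value has an error between samples, no test between the libraries was possible, and specific binding cannot be told apart from background precipitation.

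EgAGL9 is named after AGL9 of Arabidopsis, also called SEPALLATA3, a MADS-domain transcription factor. In Arabidopsis, SEPALLATA proteins join other MADS-domain proteins into complexes that bind CArG boxes, short elements with an A- and T-rich core, and help to set the identity of floral organs. Relatives of these factors take part in fruit ripening in tomato. Palm oil is pressed from the fleshy outer part of the fruit, the mesocarp. The sources used here give no genome build for the peak list, so the isolated peaks were not assigned to genes, and no sequence is shown.

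Isolated peaks showed modest enrichment. Their fold enrichment, the authors' linear ratio of immunoprecipitate pileup to expected pileup at the summit with 1 added to both, had a median of 2.77 (exact 95% order-statistic interval 2.71 to 2.84, n = 1318 peaks). The 5th and 95th percentiles were 1.79 and 4.29, and the members ran from 1.21 to 6.09. The authors' −log10 p had a median of 8.94 (8.38 to 9.46) and a range of 3.82 to 444.6. The −log10 q had a median of 5.76 (5.24 to 6.24), and 128 members (9.71%, exact binomial 95% interval 8.17 to 11.4%) lay below 2, against 8.57% of all peaks. Median width was 268 bp, and the middle 90% of widths ran from 195 to 526 bp. All intervals given for medians, shares and counts of peaks treat peaks as independent and measure no spread between samples.

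Counts past fixed limits were set against the whole list. Of the 1318 members, 135 had a fold of 4 or more (10.2%, exact binomial 95% interval 8.66 to 12.0%), against 8.26% of all 7919 peaks. A fold of 5 or more was found at 24 members (1.82%, 1.17 to 2.70%), against 1.70% of all peaks. For a −log10 q of 5 or more the number was 730 (55.4%, 52.7 to 58.1%), against 61.5% of all peaks. The list's share lay inside the members' interval at a fold of 5 and below it at a fold of 4, and above the members' interval at the q limit. At a fold of 4, peaks alone on an unplaced scaffold (8.72%, 7.70 to 9.83%) and the 393 other chromosome peaks (8.40%, 5.85 to 11.6%) both overlapped the members. At the q limit the lone scaffold peaks (58.3%, 56.4 to 60.1%) overlapped them, and the 393 others (67.7%, 62.8 to 72.3%) did not. No test was made of these differences.

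The pileups recovered from the list, which count fragments over the summit base, show that isolated peaks covered a wide range of input levels. The immunoprecipitate pileup had a median of 45 fragments (42 to 51), and the expected pileup from the input a median of 17.1 (15.3 to 19.0). The lowest expected pileup in the list, 2.36 fragments, serves here as the unit of input level, and the members' median was 7.28 times that level (6.49 to 8.06). Input level here means this expected pileup. The lowest value was shared by 248 of the 7919 peaks. Whether it is measured input or a floor set by the peak caller was not tested, so input at those peaks may be lower. An input of at most 2 times the lowest level was found at 306 members (23.2%, 21.0 to 25.6%), while 16.8% of all peaks met this limit. Among the 393 chromosome peaks with a close neighbour, 44 met it (11.2%, 8.25 to 14.7%), and among the 2809 peaks alone on their scaffold 497 did (17.7%, 16.3 to 19.2%). At this limit the interval of the isolated peaks overlaps neither of the other sets' intervals, but the peaks of 1 list are not replicates and the difference was not tested. The lowest level itself was met by 61 members (4.63%, 3.56 to 5.91%), against 3.13% of all peaks. It was also met by 102 of the peaks alone on their scaffold (3.63%, 2.97 to 4.39%), an interval that overlaps that of the members, and by 4 of the 393 peaks with a close neighbour (1.02%). At the other end, 559 members (42.4%, 39.7 to 45.1%) had an input of over 10 times the lowest level, against 48.0% of all peaks.

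Peaks with a close neighbour had a similar fold and a higher −log10 q. Median fold was 2.77 in the isolated peaks and 2.70 (2.62 to 2.79) in the 393 others on chromosomes. Median −log10 q was 5.76 in the isolated peaks and 7.90 (7.05 to 8.85) in the 393 others. Median input was 7.28 times the lowest level in the isolated peaks and 8.85 times (7.67 to 10.6) in the 393 others. The peaks alone on their scaffold stood between these in −log10 q, with a median of 5.97 (5.72 to 6.27), a median fold of 2.68 (2.65 to 2.72) and a median input of 8.26 times the lowest level.

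**Figure D1:**
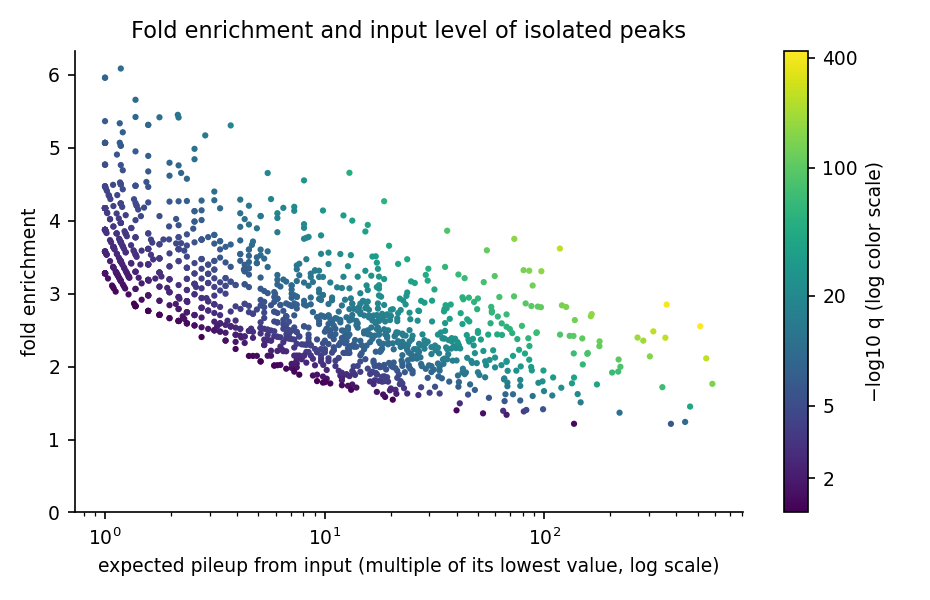
Fold enrichment (vertical axis) against the expected pileup from the input, as a multiple of its lowest value (horizontal log axis), for the 1318 isolated peaks; each point is 1 peak, colored by its −log10 q. Folds of at least 5 are found where the input was at most 3.74 times its lowest value, and the 5 highest −log10 q values where it was 314 to 548 times that value.

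Within the isolated peaks, fold and significance ran in opposite directions along the input level. Spearman's rho over the 1318 members was -0.72 between fold and input and 0.70 between −log10 q and input. Input enters both fold and q by construction, and weak folds cannot be called where input is low, so these values are description, and no test is given. Members were split into 4 groups of near-equal size by input. In group 1, with the least input (330 peaks, median 1.20 times the lowest level), fold had a median of 3.61 (3.55 to 3.71) and −log10 q one of 2.99 (2.87 to 3.16). In group 4, with the most input (330 peaks, median 38.5 times), fold had a median of 2.25 (2.18 to 2.31) and −log10 q one of 20.3 (17.3 to 23.2). A fold of at least 4 was found at 101 peaks of group 1, 27 of group 2, 7 of group 3 and 0 of group 4. At an input of at most 2 times the lowest level, 96 of 306 members had such a fold. In the whole list, 461 of 1327 peaks at that input did. Median width was 232 bp in group 1 and 316 bp in group 4.

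The 24 members with a fold of at least 5 lay on 13 of the 16 chromosomes. Their pileups ran from 16 to 51 fragments, with a median of 19, so each rests on few fragments. The highest fold, 6.09, was at peaks461 on NC_025995.1 (40134238 to 40134652), where 22 immunoprecipitate fragments (exact Poisson 95% interval 13.8 to 33.3) stood against 2.78 expected. Next came peaks23 on NC_025993.1 (12361489 to 12361706) and peaks1009 on NC_026000.1 (5146969 to 5147213), each with a fold of 5.96. Both had 19 fragments (11.4 to 29.7) against the lowest expected pileup of 2.36, so the deposited data do not separate them. The fourth was peaks1164 on NC_026001.1 (23466652 to 23466859), with a fold of 5.66 from 23 fragments (14.6 to 34.5) against 3.24 expected. The fifth was peaks1205 on NC_026002.1 (3309004 to 3309703), with a fold of 5.45 from 32 fragments (21.9 to 45.2) against 5.05 expected. Divided by the expected pileup, without the added 1, the counting intervals of the 5 overlap, with 4.96 to 12.0 at peaks461 and 4.33 to 8.94 at peaks1205. Their order by fold is thus not resolved at this depth, and picking the highest folds favours ratios that are too high. These intervals cover counting error of the immunoprecipitate only, not error of the expected pileup, and would be too narrow if duplicate reads were kept.

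These 5 peaks differed in how far they stood from other peaks. The nearest summit was 21072 bp away at peaks1009 and 34916 bp away at peaks461, but 478022 bp away at peaks23. At peaks1164 and peaks1205 it was 222846 and 295959 bp away. Of the 5, 3 lay between 10% and 20% of the way along their chromosome's span and 2 between 60% and 70%.

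The 5 members with the highest −log10 q were deep in both libraries. The first was peaks447 on NC_025995.1 (31496130 to 31496463), with a −log10 q of 437.1, a fold of 2.55 and 3094 fragments (2986 to 3205) against 1211 expected. It was followed by peaks188 on NC_025994.1 (2989087 to 2989351), with a −log10 q of 415.7, a fold of 2.85 and 2429 fragments against 852 expected. The third was peaks1084 on NC_026000.1 (32992480 to 32992833), with a fold of 2.11 and 2726 fragments against 1290 expected. The fourth was peaks1594 on NC_026006.1 (21716233 to 21716737), with a fold of 2.40 and 2014 against 840 expected, and the fifth was peaks329 on NC_025994.1 (55027107 to 55027562), with a fold of 2.48 and 1840 against 741 expected. Input at these sites was 314 to 548 times its lowest level. None of them was among the 5 with the highest fold. A −log10 q of at least 100 was reached by 26 members on 12 chromosomes (1.97%, against 2.01% of all peaks), with folds of 1.76 to 3.75 and inputs of 54.9 to 584 times the lowest level.

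The members stood far apart as well as clear of the limit. The distance to the nearest other summit had a median of 150849 bp, a 5th percentile of 18437 bp and a 95th of 699376 bp. Summits on both sides were at least 100000 bp away for 819 of the 1318. The band from 10000 to 20000 bp held 82 members (6.22%), and the band of 500000 bp or more held 153 (11.6%). At the limit itself, the members just inside were peaks1688 and peaks1689 on NC_026008.1, 10024 bp from each other, with folds of 2.08 and 3.53. The peaks just outside were peaks8 and peaks9 on NC_025993.1, 9806 bp apart, with folds of 2.40 and 2.17.

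**Figure D2:**
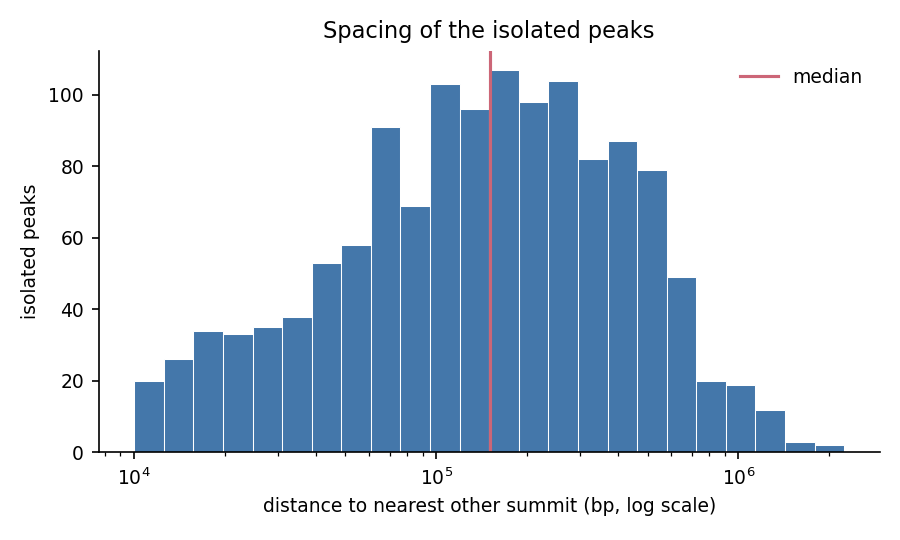
Distance from each of the 1318 isolated peaks to the nearest other summit on its chromosome (horizontal log axis, bp) and the number of isolated peaks per bin (vertical axis). Distances start at 10024 bp and centre on a median of 150849 bp (vertical line).

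Enrichment was only weakly related to the degree of isolation. Over the 1318 members, Spearman's rho of distance to the nearest summit was 0.031 with fold, 0.011 with −log10 q and -0.0064 with input, values given as description, since members share the same 2 libraries. Median fold was 2.88 (2.47 to 3.12, n = 82) at 10000 to 20000 bp and 2.83 (2.68 to 3.11, n = 153) at 500000 bp or more. It was lowest, 2.63 (2.51 to 2.77, n = 165), at 20000 to 50000 bp. Folds of 4 or more made up 3.66% (0.76 to 10.3%) of the nearest band, 14.3% (10.1 to 19.6%) of the band from 50000 to 100000 bp, the highest share, and 8.50% (4.60 to 14.1%) of the farthest. Median −log10 q ran from 4.72 (4.29 to 5.70) at 100000 to 200000 bp to 6.77 (3.82 to 9.05) at 10000 to 20000 bp.

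The 2 most isolated members were unlike each other. The summit of peaks885 on NC_025998.1 (42945013 to 42945222), the last of its chromosome, was 1835238 bp from the one before it. It had a fold of 5.37 from 17 fragments (9.90 to 27.2) at the lowest input level. The summit of peaks1174 on NC_026001.1 (30405796 to 30406088) had its neighbours 2891687 and 1826359 bp away, and a fold of 2.76 from 229 fragments (200.3 to 260.7) at 35.0 times the lowest input level.

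Isolated peaks were found on each of the 16 chromosomes. Chromosome lengths were not used here, so position was counted between the first and the last summit of a chromosome, and these spans sum to 647 Mb. Over them the members numbered 2.04 per Mb. The number per chromosome ran from 40 on NC_026008.1, a span of 20.3 Mb, to 150 on NC_025994.1, a span of 65.4 Mb. Density was highest on NC_026005.1 at 2.56 per Mb (exact Poisson 95% interval 1.99 to 3.24) and lowest on NC_026001.1 at 1.77 per Mb (1.37 to 2.25), and these intervals overlap. The isolated share of a chromosome's peaks ran from 63.3% (51.7 to 73.9%) on NC_026006.1 to 89.1% (77.8 to 95.9%) on NC_026007.1.

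The pooled position along the chromosomes was close to even, when the span was divided into 10 equal segments, though segments 3 and 4 each held more members than any of segments 6 to 9. An even spread would put 131.8 members in each segment. Segment 3 held 161 (exact Poisson 95% interval 137 to 188) and segment 4 held 153 (130 to 179). Segment 6 held 115 (94.9 to 138) and segment 9 held 114 (94.0 to 137), and the other segments held 121 to 134. The interval of segment 3 was the 1 of the 10 that left out the even count. Members were correspondingly closer together there, with a median distance to the nearest summit of 110197 bp in segment 3 and 208575 bp in segment 6. Of all 1711 chromosome peaks, segment 4 held the most, 203, and segment 3 held 188. Members made up 85.6% of the peaks in segment 3 and from 70.6% to 79.8% of those in the other segments. The member count of a segment thus depends on this share as well as on its number of peaks. Segments follow the assembly's numbering, so the same segment of different chromosomes is not a matched position. No allowance was made for comparing 10 segments.

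The share of isolated peaks near chromosome ends was close to an even spread. Segments 1 and 10 together held 267 members (20.3%, exact binomial 95% interval 18.1 to 22.5%), where an even spread gives 20%. By chromosome this share ran from 14.1% (7.74 to 23.0%) on NC_025997.1 to 32.7% (19.9 to 47.5%) on NC_026007.1, and the interval left out 20% on 0 of the 16. The spans run from summit to summit, so each chromosome has a peak at both ends by construction. Of these 32 end summits, 27 were members, and each had a neighbour on 1 side only. The 20% leaves these fixed summits out of account and is thus somewhat low as a reference. Of all 1711 chromosome peaks, segment 1 held 182 and segment 10 held 172, and members made up 73.6% and 77.3% of these.

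**Figure D3:**
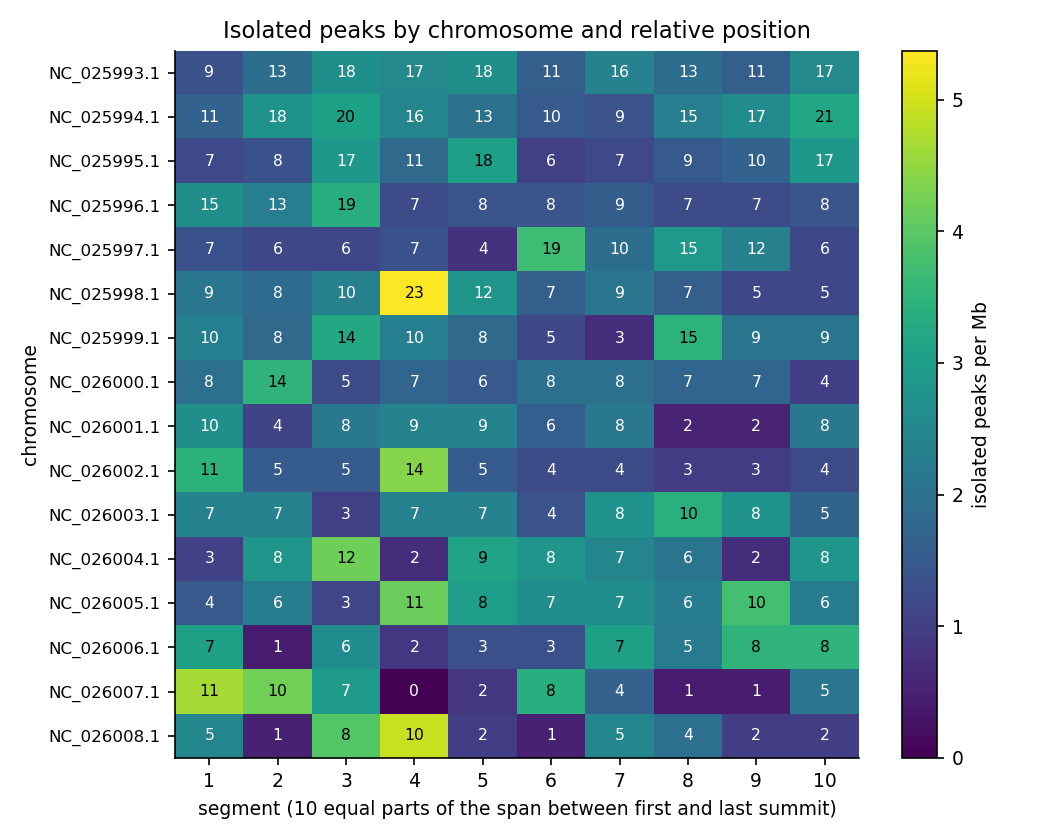
Isolated peaks in each of 10 equal segments of the span (columns) of each of the 16 chromosomes (rows); color gives the density per Mb and the printed number the count. The densest cell is segment 4 of NC_025998.1 with 23 peaks, and the empty one is segment 4 of NC_026007.1.

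Segments of single chromosomes, with few peaks each, ranged widely in density. Over the 160 segments of single chromosomes, density had a median of 1.99 members per Mb and 5th and 95th percentiles of 0.69 and 3.77. The densest was segment 4 of NC_025998.1 (12976757 to 17257944), with 23 members, or 5.37 per Mb, among 27 peaks in all. It was followed by segment 4 of NC_026008.1 (7022195 to 9050992), with 10 members at 4.93 per Mb. Segment 1 of NC_026007.1 came next (730 to 2366046), with 11 members at 4.65 per Mb. Segment 4 of the same chromosome (7096678 to 9461995) held 0 peaks of any kind and was the 1 empty stretch of the 160. A count of 0 in that stretch has an upper exact Poisson limit of 3.69 members.

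Some chromosomes carried their isolated peaks mostly on one side of the midpoint. On NC_025997.1, 30 of 92 members (32.6%, 23.2 to 43.2%) lay before the midpoint of the span, and its segment 6 alone held 19. On NC_026002.1, 40 of 58 members (69.0%, 55.5 to 80.5%) lay before the midpoint, on NC_025998.1 62 of 95 (65.3%, 54.8 to 74.7%) and on NC_025996.1 62 of 101 (61.4%, 51.2 to 70.9%). The interval left out 50% on these 4 of the 16 chromosomes. On each of the 4, the segment with the most members also held the most called peaks of any kind. These were segment 6 of NC_025997.1 with 28 peaks and segment 4 of NC_026002.1 with 17. The others were segment 4 of NC_025998.1 with 27 and segment 3 of NC_025996.1 with 23. Called peaks of any kind were not counted by side. Whether the uneven spread is particular to isolated peaks was thus not tested. Where the centromeres lie was not used here, and numbering starts at the end given by the assembly, so a side of one chromosome does not correspond to the same side of another.

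Median deposited values lay in a narrow range along the chromosomes. Median fold by segment ran from 2.59 (2.44 to 2.76) in segment 9 to 2.95 (2.76 to 3.21) in segment 5. Segment 9 was the 1 of the 10 whose interval left out the members' median of 2.77, and it also had the highest median input, 11.1 times the lowest level (6.69 to 14.2). Median −log10 p ran from 7.64 (6.51 to 10.1) in segment 7 to 10.2 (8.49 to 12.1) in segment 2. Median −log10 q ran from 4.57 (3.55 to 6.86) in segment 7 to 6.97 (5.35 to 8.69) in segment 2. For both of these measures the interval left out the members' median in 0 of the 10 segments. Members with a fold of at least 4 numbered 9 in segment 8 (7.2%, 3.3 to 13.2%). They numbered 18 each in segments 2 (13.8%, 8.42 to 21.0%) and 5 (13.6%, 8.29 to 20.7%). These intervals overlap and hold the 10.2% found over all members, against 8.26% of all peaks.

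**Figure D4:**
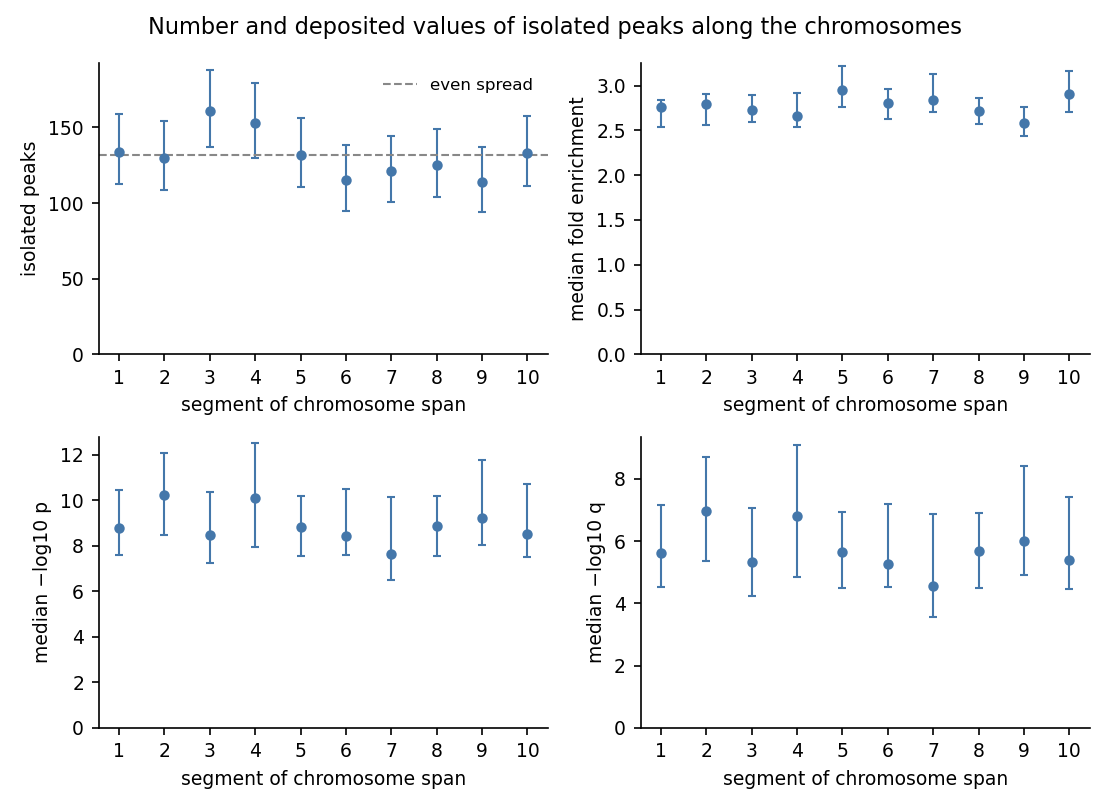
Number of isolated peaks and medians of their deposited fold enrichment, −log10 p and −log10 q (vertical axes) by segment of the chromosome span, pooled over 16 chromosomes; bars are exact 95% intervals, Poisson for the number and order-statistic for the medians. The number peaks in segment 3 at 161 against an even 131.8, while median fold stays between 2.59 and 2.95 and median −log10 q between 4.57 and 6.97. Segments follow the assembly's numbering, so the same segment of different chromosomes is not a matched position.

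Ends and middle differed by less than their intervals. The 267 members in segments 1 and 10 had a median fold of 2.79 (2.71 to 2.93), and the 247 in segments 5 and 6 one of 2.89 (2.75 to 3.02), a difference of -0.10. Within single chromosomes the difference ran from -0.80 to 0.45, and the ends were higher on 9 of the 16. Taking the first and last 5 Mb against all other members turned the difference to 0.067, so its direction is not settled. Median −log10 q was 5.46 (4.64 to 6.71) at the ends and 5.38 (4.61 to 6.52) in the middle. Low-input members, those at no more than 2 times the lowest level, made up 28.6% (21.1 to 37.0%) of segment 10 and 19.6% (13.6 to 26.8%) of segment 4, which were the highest and lowest shares.

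Between chromosomes, median fold of the members ran from 2.57 (2.41 to 2.70, n = 110) on NC_025995.1 to 3.09 (2.85 to 3.24, n = 143) on NC_025993.1. These were the 2 of the 16 whose interval left out 2.77. Input moved the other way on both, with medians of 9.34 times the lowest level on NC_025995.1 and 5.11 times on NC_025993.1, and its part in the difference was not tested.

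Long stretches of the assembled chromosome sequences held no called peak. The 1695 distances between neighbouring summits of all chromosome peaks had a median of 236712 bp, and 165 of them were at least 1 Mb, together 236 Mb or 36.5% of the summed spans. Isolated peaks stood on both sides of 129 of these 165, and of 1140 of all 1695 distances. A gap of this width already clears 1 side of each peak beside it, so the first count follows in part from the rule. By chromosome, gaps of at least 1 Mb took up from 14.8% of the span on NC_026005.1 to 54.2% on NC_026008.1. Gaps of at least 2 Mb numbered 12, on 7 chromosomes, and 4 of them were on NC_025996.1. With peaks of a −log10 q of at least 5 alone, the number of gaps of at least 2 Mb was 62, and between isolated peaks alone it was 22. The spans include any undetermined bases of the assembly, which were not counted here. Where the 6208 peaks on unplaced scaffolds lie in the genome is not known. Some gaps may therefore hold peaks, and some members may have closer neighbours.

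The widest gap, 3.46 Mb, lay on NC_026007.1 between the summits of peaks1638 at 6902916 and peaks1639 at 10364708 and took up 14.6% of that chromosome's span. On its far side, peaks1639 was an isolated peak with a fold of 3.80 and a −log10 q of 22.0. On its near side, peaks1638 had another summit 2955 bp away and so was no member. The second gap, 2.89 Mb on NC_026001.1, ran from peaks1173 at 27514246, a member with a fold of 3.28, to peaks1174 at 30405933. The next 2 gaps were both 2.60 Mb. One ran on NC_025996.1 from peaks621 at 44631144, which was no member, to peaks622 at 47230160, a member with a fold of 1.90. The other ran on NC_025995.1 from peaks450 at 33820017 to peaks451 at 36418386, members with folds of 2.48 and 3.13. The fifth, 2.53 Mb on NC_026002.1, separated 2 members, peaks1255 at 26068208 with a fold of 3.51 and peaks1256 at 28601277 with a fold of 3.71.

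**Figure D5:**
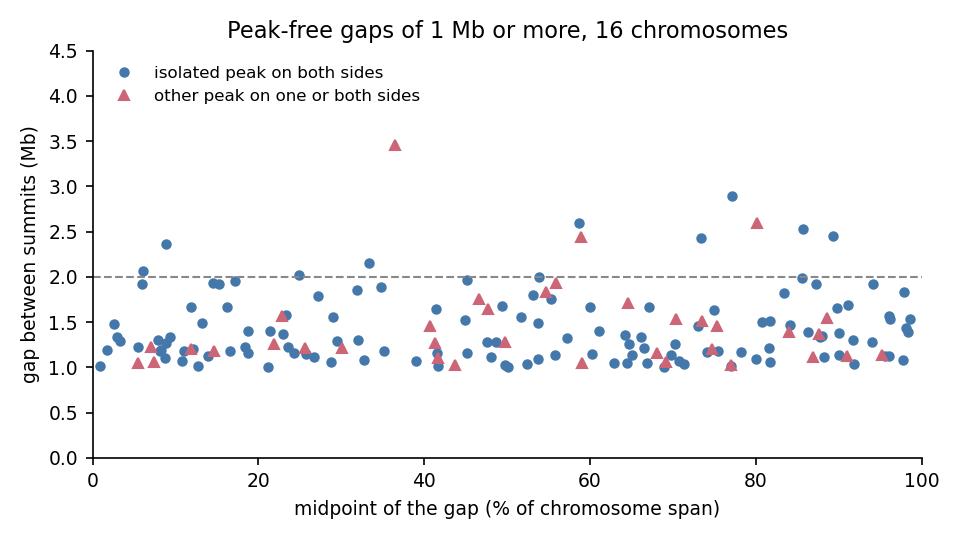
Width (vertical axis, Mb) and midpoint (horizontal axis, % of the chromosome span) of the 165 gaps of at least 1 Mb between neighbouring summits on 16 chromosomes; circles mark gaps with an isolated peak on both sides, triangles the others, and the dashed line 2 Mb. Gaps occur along the whole span, with 9 centred in segment 4 and 20 in segment 9.

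Gaps of at least 1 Mb were centred in each of the 10 segments, from 9 in segment 4 to 20 in segment 9. The 268 members beside such a gap had a median fold of 2.83 (2.72 to 2.98), and the other 1050 one of 2.76 (2.70 to 2.83). Median −log10 q was 5.64 (4.53 to 6.95) beside a gap and 5.80 (5.23 to 6.39) elsewhere. A fold of at least 4 was found at 21 of the 268 (7.84%, 4.92 to 11.7%) and at 114 of the 1050 (10.9%, 9.04 to 12.9%), with overlapping intervals. No difference between these sets was resolved at this precision.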

How the data were processed

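The deposited data are 1 peak list in narrowPeak layout, called on 1 immunoprecipitate against 1 input library. The submitters' processing notes name MACS2 2.1.1, BWA 0.7.8, ChIPseeker, HOMER and FastQC, while settings and genome build are not stated. Each peak has 4 deposited values from the authors: fold enrichment (a linear ratio), −log10 p, −log10 q and an integer score. The deposited score was 10 times the −log10 q without its decimals in 7919 of 7919 peaks and was not used further. The lowest deposited −log10 q was 1.30. The available gene table is of another assembly and was not used. Coordinates are 1-based.

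Pileups were recovered as the whole number at which the deposited fold (pseudocount 1 on both sides) and the Poisson p both held. This succeeded for 7919 of 7919 peaks within 0.1 of a 1-fragment step and was tested on simulated data. The depth of the libraries is unknown, as is whether duplicates were removed. Positions were scaled from the first to the last summit of each chromosome and divided into 10 equal segments. Python 3.11.15, pandas 2.3.3, NumPy 2.4.6 and SciPy 1.17.1 were used. No tests were made, since each group has 1 sample and peaks are not replicates.

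Named peaks are the 5 members with the highest fold, the 5 with the highest −log10 q, the 2 most isolated, the 2 just inside and the 2 just outside the limit, and those beside the 5 widest gaps. The members and rules were chosen with earlier results of these data known. Alternatives were other isolation distances, a stricter q limit, distances between peak edges, other end zones, and averaging within input bins or chromosomes.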

Additional observations from a re-analysis of the deposited data

How the results depend on the processing

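The number of isolated peaks was 1435, 1236 and 1071 at isolation distances of 5000, 20000 and 50000 bp and 1316 with distances between peak edges. In these 4 settings the median fold and the share at the chromosome ends moved by less than their intervals. Keeping only peaks with a −log10 q of at least 5 left 804 isolated peaks with a median fold of 2.71, just below the interval of the 1318 members. That setting also left 62 gaps of at least 2 Mb in place of 12, since fewer peaks were placed, and counting gaps between isolated peaks alone gave 22. The first and last 5 Mb of each chromosome held 24.4% of the members and 24.7% of the summed spans. The difference in median fold between ends and middle, -0.10, stayed between -0.11 and -0.048 in 7 other settings and was 0.067 with the first and last 5 Mb against all other members, so its direction is not settled. No paired analysis was possible because there is a single sample per group, which also means that none could be left out. Low counts limit the precision of the highest folds, as the 24 members with a fold of at least 5 rest on a median of 19 fragments.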

Other observations

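Neighbouring isolated peaks did not resemble each other in level. Over the 1140 pairs of members that follow each other with no other peak between them, Spearman's rho was -0.021 for fold, 0.018 for −log10 q, 0.0079 for input level and 0.011 for width. The pairs come from the same 2 libraries and each member can stand in 2 pairs, so these values are given as description.

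Distance from the nearer end of the chromosome span was as weakly related to level. Over the 1318 members, Spearman's rho was -0.013 with fold, 0.0048 with input level and -0.014 with −log10 q.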
